A study of Canis lupus familiaris with 12 samples.

Results

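CGN/CGNL1 double-KO cells were compared with CGN-KO cells, a comparison of 6 of the study's 12 RNASeq libraries that asks which mRNAs differ when CGNL1 is lost in addition to CGN. The libraries were taken by their labels: 3 libraries of the double-KO line (clone 21D3) and 3 libraries of the CGN-KO line (clone 1G8), all from MDCKII cells, an epithelial line from dog kidney. The study also holds 3 libraries of WT MDCKII cells, which carry both genes, and 3 of CGNL1-KO cells (clone 22). The KO lines were made with CRISPR/Cas9, the labels name no treatment, and CGN is disrupted in both lines compared. Each KO genotype is 1 clonal line, so the loss of CGNL1 and other differences between the clones 21D3 and 1G8 cannot be told apart. Libraries of 1 genotype were not stated to come from separate cultures, and p-values measure the spread between libraries, which may be technical.

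Cingulin (CGN) and paracingulin (CGNL1) are related coiled-coil proteins on the cytoplasmic side of epithelial junctions. Both sit at tight junctions, the seals between neighbouring epithelial cells, and CGNL1 is also found at adherens junctions. Both bind nonmuscle myosin 2, which places them between the junctional membrane and the contractile actin belt.

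Levels are given in CPM, the deposited read counts per 1000000 reads of the scaled library, and the values of a genotype are listed in the order of its replicates 1, 2, and 3. The column of 1 double-KO library carries no number, and this library, called unnumbered, is listed first. No correction for transcript length was made, so levels are compared between genotypes and not between genes. Differences are in log2(CPM + 1) from limma with their SE, and a positive difference means a higher level in double-KO cells. The added 1 CPM understates the change of genes at low levels. A gene was called at an adjusted p (Benjamini-Hochberg) below 0.05 and a change of at least 2-fold.

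The 3 CGN-KO libraries held 30086076, 19777052, and 16875183 reads, and the 3 double-KO libraries held between 17511571 and 24240796. CGN-KO replicate 1 stood apart from its own genotype. Its root mean square difference in log2(CPM + 1) was 0.224 and 0.204 from CGN-KO replicates 2 and 3, which differed from each other by 0.154, and the double-KO libraries differed from each other by 0.149 to 0.154. All 12 epithelial markers on a list of cell type markers were measured, and CDH1, which encodes E-cadherin, was at 989 to 1198 CPM over the 6 libraries. Of 7 endothelial markers, KDR and VWF were listed, and their summed level was 1.38 to 1.78 CPM in CGN-KO and 0.690 to 0.853 CPM in double-KO cells. Of 8 fibroblast markers PDGFRA alone was listed, at 4.94 to 11.1 CPM, and of 8 immune markers CD68 and CD74 were among those listed, with CD74 at 1656 to 1773 CPM. The part of other cells in the results was not tested.

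Of 12650 genes tested, 45 (0.356%) were called between double-KO and CGN-KO cells. In double-KO cells 39 genes (0.308%) were lower and 6 (0.0474%) were higher. The lower genes held chemokines (CCL2, CCL7, and CCL20), secreted defence proteins (LCN2, SCGB1A1, and MUC5B), the collagenase MMP13, the keratin KRT14, and the gap junction gene GJB1. The higher genes were ADAMTS1, MELTF, TRPA1, FAM110B, RCN1, and TBX20. Genes outside the 25 that the naming rule gave, CCL7, MUC5B, and list members under 2-fold among them, were chosen after their values were seen. In bulk RNA a smaller share of cells with a transcript and less of it per cell cannot be told apart.

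The called genes were mostly at low levels. Their mean over the 6 libraries ranged from 0.805 to 69.0 CPM with a median of 5.09 CPM, against a median of 32.0 CPM for all genes tested, and 34 of the 45 were under 10 CPM. The values of the 2 genotypes did not overlap for any of the 45, against non-overlap in 30.5% of all genes tested. The calls were made from these same values, so their non-overlap is no separate support. At any fold, 1118 genes (8.84%) passed the adjusted p, 624 higher (4.93%) and 494 lower (3.91%), and 903 of them changed by less than 1.5-fold. This number was 546 without the unnumbered double-KO library, 706 and 618 without double-KO replicates 2 and 3, and 622 without CGN-KO replicate 1. edgeR on the recovered reads, with no added CPM, called 118 genes, 13 higher and 105 lower, and these held all 45. A test against a 2-fold null (limma treat) called 0 genes, with 21 at an unadjusted p below 0.05, so the calls rest on the estimated fold.

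**Figure D1:**
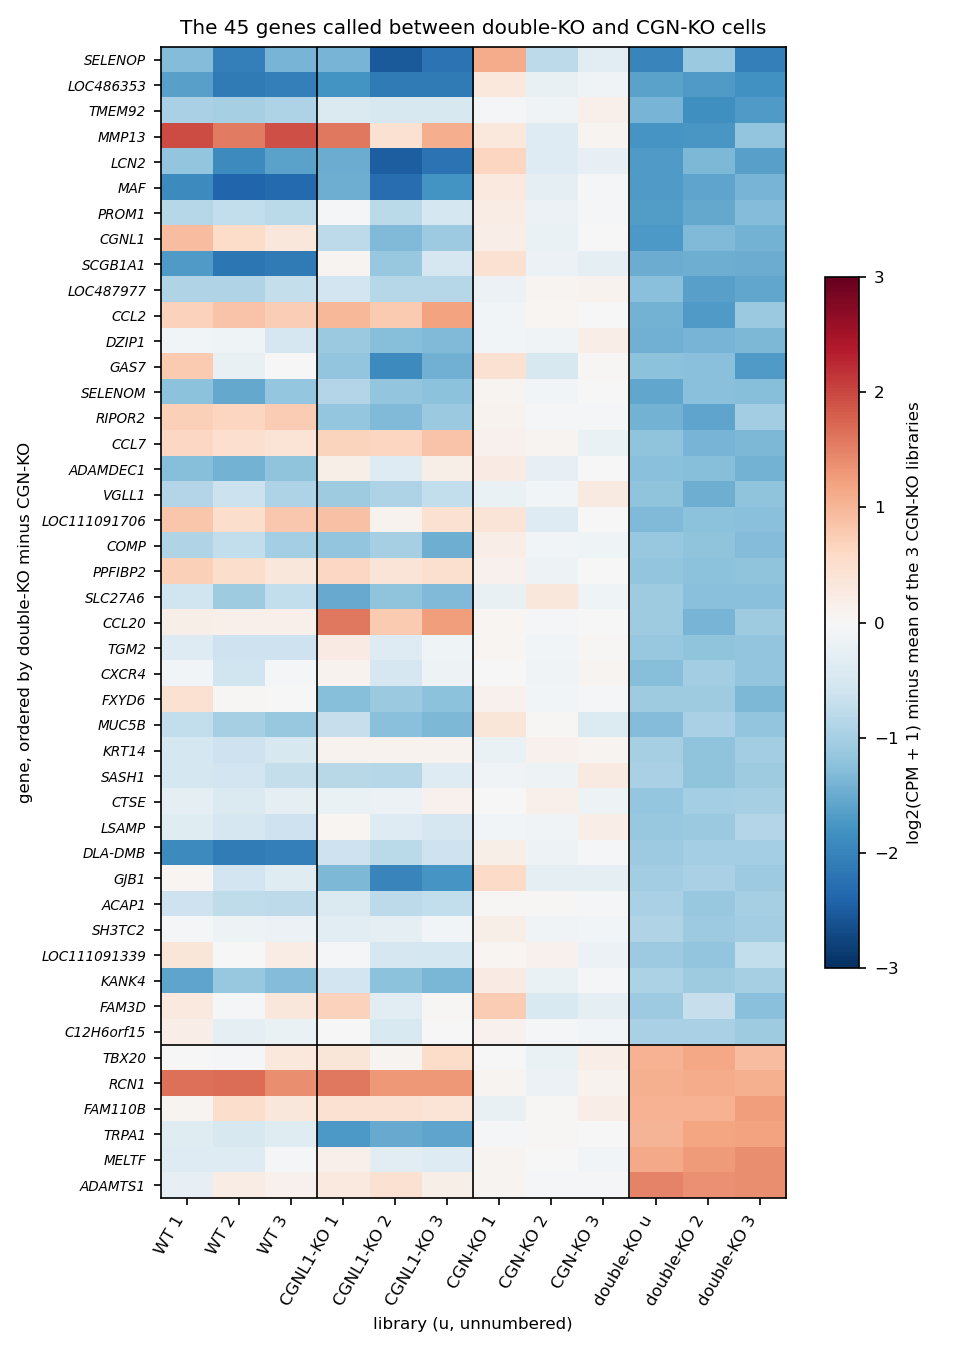
Levels of the 45 called genes (rows) in the 12 libraries (columns), as log2(CPM + 1) minus the mean of the 3 CGN-KO libraries, with blue for lower and red for higher. The 3 double-KO columns are blue for the upper 39 genes and red for the lower 6, whereas the WT and CGNL1-KO columns follow neither pattern throughout.

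CGNL1 mRNA, the target of the second knockout, was lower in double-KO than in CGN-KO cells and was still detected. It was at 1.11, 1.76, and 1.58 CPM in the double-KO libraries, from 23 to 39 reads, and at 6.92, 5.04, and 6.02 CPM in the CGN-KO libraries, from 102 to 210 reads. The genotypes did not overlap, and the difference was -1.49 ± 0.17 (limma, adjusted p = 5.32e-05). A two-sided exact permutation test of the CPM gave p = 0.1, the smallest p that 3 values against 3 allow. CGNL1 was at 12.3, 9.22, and 7.74 CPM in WT and 3.02, 1.76, and 2.25 CPM in CGNL1-KO cells, so transcript remained in both lines labelled as lacking CGNL1.

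CGN, which is disrupted in both lines, was at 41.6, 45.3, and 39.7 CPM in double-KO and 56.5, 48.3, and 47.0 CPM in CGN-KO cells, against 233, 211, and 199 CPM in WT cells. The double-KO values were all below the CGN-KO values by a small margin, a difference of -0.25 ± 0.08 (limma, adjusted p = 0.0454; exact permutation test, two-sided, p = 0.1). CGN was not called, since the change was under 2-fold.

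**Figure D2:**
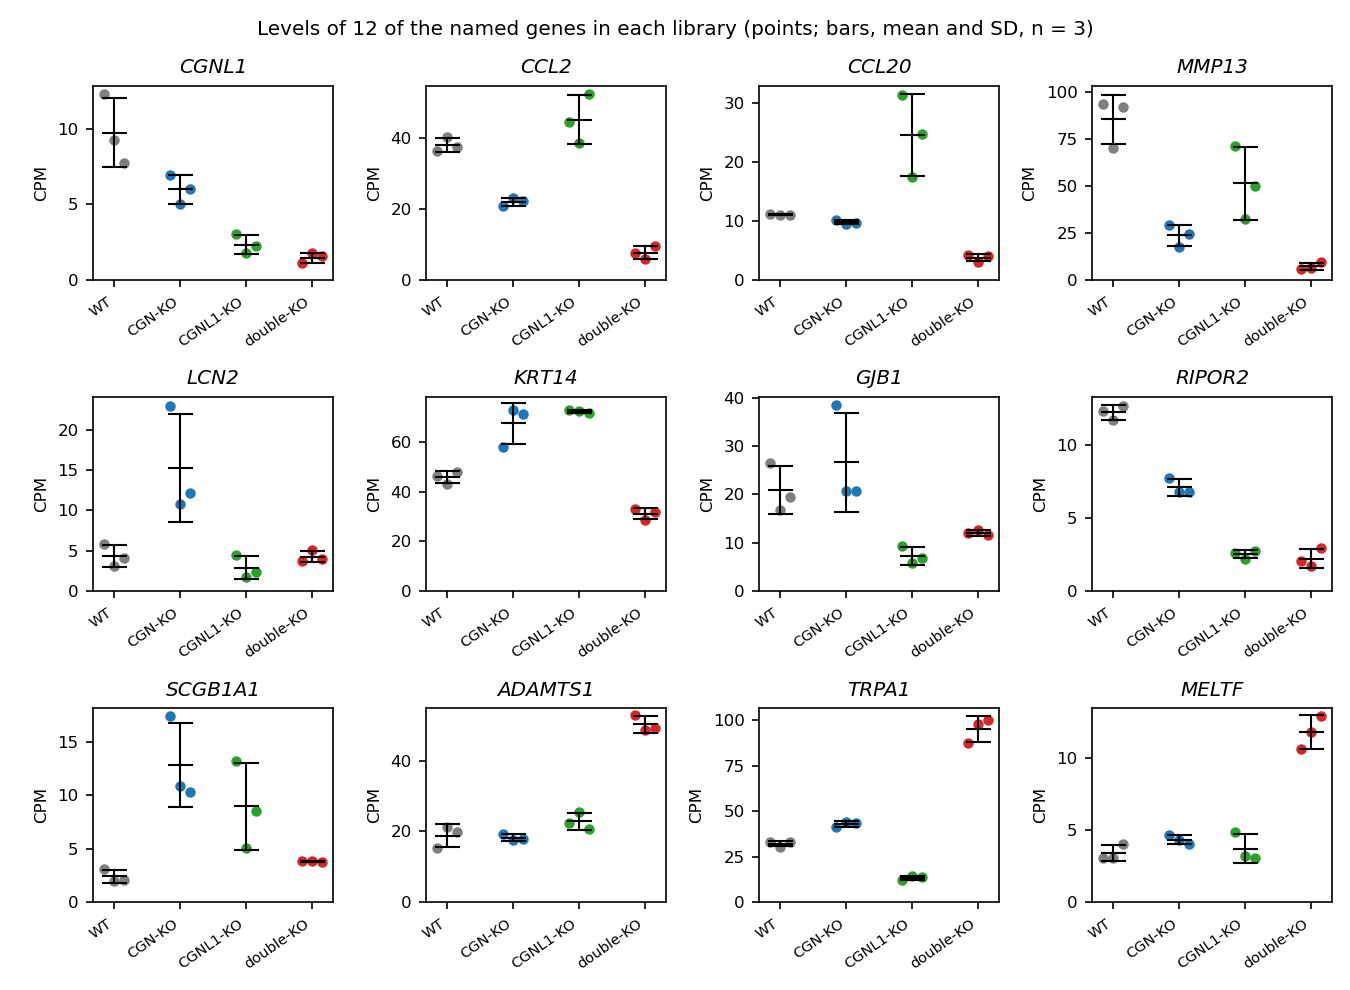
Levels in CPM (vertical axes, from 0) of 12 of the named genes in each library of the 4 genotypes, with points for libraries and bars for the mean and SD (n = 3). In each panel the double-KO points lie apart from the CGN-KO points, and WT cells are high for MMP13, CCL2, and RIPOR2 but near double-KO cells for LCN2 and SCGB1A1.

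The lower genes included chemokines, a chemokine receptor, and secreted proteins of mucosal defence. CCL2, the monocyte chemoattractant, was at 7.56, 6.03, and 9.62 CPM in double-KO and 20.7, 23.0, and 22.1 CPM in CGN-KO cells, a difference of -1.41 ± 0.13 (limma, adjusted p = 6.87e-06). CCL20, the ligand of CCR6, was at 4.17, 3.07, and 4.14 CPM in double-KO and 10.2, 9.53, and 9.62 CPM in CGN-KO cells (-1.18 ± 0.15, adjusted p = 0.000173). Each CGN-KO library lay above each double-KO library for both chemokines, and CCL2 was higher still in WT cells, at 36.2, 40.2, and 37.4 CPM. CXCR4, the receptor of CXCL12, was low in both lines, at 0.581, 0.853, and 0.690 CPM in double-KO and 2.90, 2.57, and 3.07 CPM in CGN-KO cells (-1.17 ± 0.17, adjusted p = 0.000526). CCL7, a chemokine related to CCL2, was at 0.727, 0.512, and 0.568 CPM against 3.36, 3.21, and 2.48 CPM, from 9 to 15 reads in double-KO libraries.

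LCN2, which encodes the siderophore-binding protein lipocalin 2, was at 3.73, 5.06, and 4.02 CPM in double-KO and 23.0, 10.8, and 12.1 CPM in CGN-KO cells (-1.56 ± 0.26, limma, adjusted p = 0.00165). CGN-KO replicate 1 was well above the other CGN-KO libraries, and WT cells were at 5.83, 3.15, and 4.11 CPM, near the double-KO level. SCGB1A1, the secretoglobin of airway club cells, was at 3.83, 3.87, and 3.78 CPM in double-KO and 17.4, 10.9, and 10.3 CPM in CGN-KO cells (-1.48 ± 0.24, adjusted p = 0.00117). The 3 double-KO values were nearly equal and sat between those of CGN-KO and WT cells, the latter at 3.12, 1.99, and 2.10 CPM. MUC5B, a gel-forming mucin, was at 2.08, 2.90, and 2.35 CPM against 8.80, 6.81, and 4.78 CPM (-1.15 ± 0.19), and its call was lost without CGN-KO replicate 1.

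A list of 48 chemokine, cytokine, and acute phase genes had 28 members among the genes tested. At any fold 12 of them (42.9%, against 3.91% of all genes tested) fell and 2 rose in double-KO cells (adjusted p below 0.05), 14 did not pass, and their median difference was -0.27, against 0.000561 for all genes tested. Beside LCN2, CCL2, CCL20, and CXCR4, the complement gene C3 fell (-0.80, from 187, 156, and 153 to 83.6, 103, and 96.5 CPM), as did the NF-kappaB inhibitor NFKBIA (-0.61), the IL1 receptor antagonist IL1RN (-0.64), and the scavenging chemokine receptor ACKR3 (-0.54). The 2 that rose were PTGS2, the inducible cyclooxygenase (0.64, 52.3, 51.5, and 52.4 CPM against 34.7, 31.2, and 33.1 CPM), and LIFR, the receptor of leukemia inhibitory factor (0.45). The count of lower members was 9 to 12 without any 1 of the 6 libraries. This list and those below were written with earlier results of these data known, so their shares beside that of all genes tested are no separate support.

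Some interferon-stimulated genes fell as well, each by less than 2-fold. Of 46 listed genes of interferon response and antigen processing, 38 were tested, 10 fell (26.3%, against 3.91% of all genes tested), 0 rose, and 28 did not pass, with a median difference of -0.15. No member rose by edgeR either, and 15 of the 38 had an unadjusted p below 0.05. MX2, an interferon-induced GTPase, was at 4.65, 6.88, and 6.25 CPM in double-KO and 14.9, 10.4, and 11.6 CPM in CGN-KO cells (-0.94 ± 0.15, limma, adjusted p = 0.00101), and its paralog MX1 was at 122, 153, and 126 CPM against 261, 205, and 218 CPM (-0.77 ± 0.11, adjusted p = 0.000434). For both genes CGN-KO replicate 1 was the highest library. The other 8 that fell were IFI35, BST2, IFI44, USP18, ISG15, RSAD2, OAS1, and OAS3, by 0.25 to 0.64 on the log2 scale. The count rested on single libraries, as it was 2 without the unnumbered double-KO library, 2 without double-KO replicate 3, 2 without CGN-KO replicate 1, and 3 without CGN-KO replicate 3.

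Secreted proteases changed in both directions. MMP13 (collagenase 3) was at 6.05, 6.20, and 9.62 CPM in double-KO and 29.1, 17.6, and 24.5 CPM in CGN-KO cells (-1.57 ± 0.23, limma, adjusted p = 0.000581). WT cells held more than either line, at 93.8, 70.4, and 92.2 CPM. ADAMTS1, a metalloprotease that cleaves matrix proteoglycans, was at 53, 48.6, and 49.1 CPM in double-KO and 19.3, 17.5, and 17.7 CPM in CGN-KO cells, the largest rise of the comparison (1.42 ± 0.10, adjusted p = 9.47e-07). Its double-KO values also lay above every WT library (15.2, 21.3, and 19.8 CPM). Of 43 listed protease and inhibitor genes 28 were tested, and 1 rose (ADAMTS1, 3.57%, against 4.93% of all genes tested). In this list 6 fell (21.4%, against 3.91%), among them the membrane proteases TMPRSS4 (-0.65) and MMP14 (-0.60) and the tissue plasminogen activator PLAT (-0.44). The 6 lower members became 3 without double-KO replicate 2 and 4 or 5 without any other library.

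Basement membrane collagen was higher in double-KO cells. COL4A1, which encodes a chain of collagen IV, was at 187, 177, and 198 CPM in double-KO and 86.8, 116, and 101 CPM in CGN-KO cells (0.89 ± 0.09, limma, adjusted p = 1.44e-05). Its partner chain COL4A2 was at 154, 145, and 168 CPM against 81.6, 97.0, and 94.2 CPM (0.77 ± 0.08, adjusted p = 3.67e-05). All double-KO values of both genes were also above all WT values, which were 76.0, 89.1, and 82.0 CPM for COL4A1. Of 54 listed matrix and integrin genes 37 were tested, 6 rose (16.2%, against 4.93% of all genes tested; COL4A1, COL4A2, the lysyl oxidases LOX and LOXL1, ITGA6, and LAMB1), LAMB3 fell (-0.42), and 30 did not pass. LAMB1 lies on the chromosome of CTNND1, whose median was raised in double-KO cells. The count of 6 became 3 without double-KO replicate 3, 4 without the unnumbered double-KO library, and 4 without CGN-KO replicate 1. LTBP1, which tethers latent TGF-beta to the matrix, rose as well (0.79 ± 0.06, adjusted p = 9.47e-07), with 345, 354, and 355 CPM in double-KO and 187, 212, and 209 CPM in CGN-KO cells. Unlike for the collagens, CGN-KO cells were the low line for LTBP1. WT cells were at 279, 303, and 286 CPM and CGNL1-KO cells at 315, 349, and 344 CPM.

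Among genes of epithelial structure, KRT14, a keratin of basal epithelial cells, fell with the smallest SE of the 39 lower genes. It was at 33.0, 28.6, and 31.9 CPM in double-KO and 58.0, 73.0, and 71.5 CPM in CGN-KO cells, from at least 503 reads in any of these libraries (-1.08 ± 0.08, limma, adjusted p = 9.47e-07). WT cells were at 46.4, 43.2, and 47.8 CPM, between the 2 lines. Of 13 keratin and intermediate filament genes tested, KRT14, KRT16 (-0.55), and KRT19 (-0.29) fell (23.1%, against 3.91% of all genes tested). By limma or edgeR 0 rose, 6 had an unadjusted p below 0.05, and the median was 0.09. Keratins are a family of similar genes, and how the counting treated reads that fit several of them is not given in the sources used here. PROM1, which encodes the protrusion protein prominin 1, was at 0.727, 0.910, and 1.26 CPM against 5.51, 3.90, and 4.31 CPM (-1.502 ± 0.17, adjusted p = 5.18e-05). GJB1, a connexin of gap junctions, was at 11.9, 12.6, and 11.5 CPM against 38.5, 20.7, and 20.7 CPM (-1.03 ± 0.21, adjusted p = 0.00538), with CGN-KO replicate 1 far above the other libraries, and its call was lost without that library.

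Of the 81 genes tested on 4 lists of junction genes, 9 passed at any fold (11.1%), against 8.84% of all genes tested. The 9 include CGN and CGNL1, the targets of the knockouts. Of 25 tested genes on the list of CGN, CGNL1, and their partners, CGN and CGNL1 alone passed, and no partner did. Of 30 tight junction genes 1 rose (PARD6A, a polarity protein, 0.41) and 2 fell (the scaffold MAGI1, -0.48, and the claudin CLDN4, -0.26). CLDN4 was at 229, 252, and 249.8 CPM in double-KO and 306, 285, and 285 CPM in CGN-KO cells. Of 23 adherens junction genes 0 passed with limma, 0 with edgeR, and 1 with DESeq2, 6 had an unadjusted p below 0.05, and the differences ran from -0.30 to 0.15. Of 12 desmosome genes 4 passed (33.3%), of which PKP3 and PKP4 rose and DSC3 and EVPL fell, each by less than 2-fold, and PKP3 lies on the chromosome of CTNND1.

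**Figure D3:**
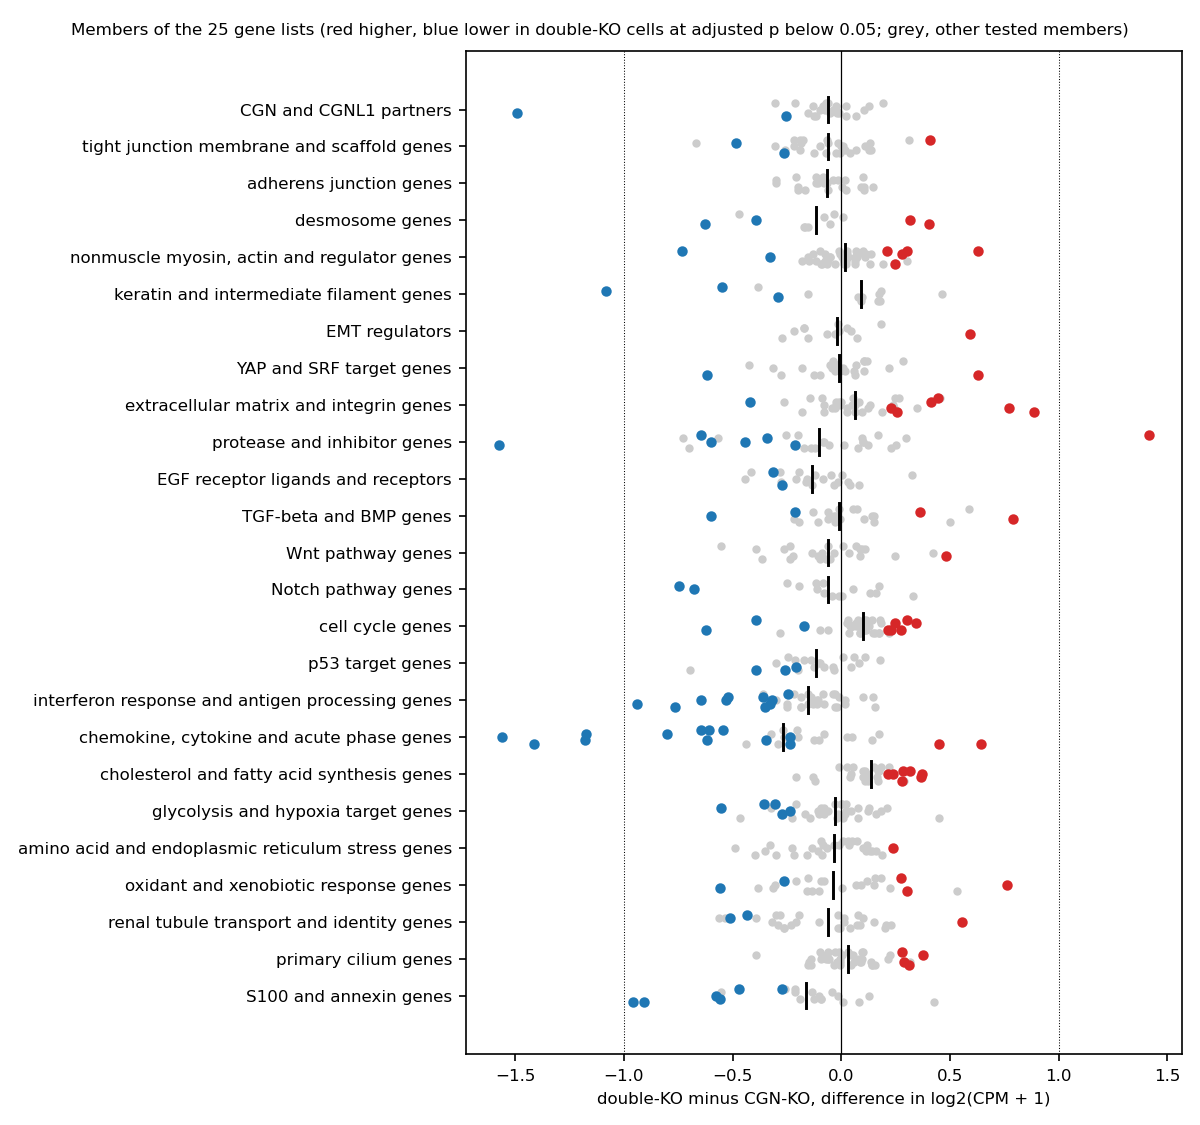
Difference between double-KO and CGN-KO cells in log2(CPM + 1) (horizontal axis) for the tested members of 25 gene lists (rows), with red and blue points for members that were higher or lower at an adjusted p below 0.05, grey points for the others, a bar at the list's median, and dotted lines at 2-fold. The chemokine row holds 12 blue and 2 red points, and the adherens junction row holds grey points only.

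Of 48 genes of nonmuscle myosin, actin, and their regulators, 5 rose (10.4%, against 4.93% of all genes tested) and 2 fell (4.17%, against 3.91%). MYL9, a regulatory light chain of myosin 2, was at 39.2, 36.7, and 36.6 CPM in double-KO and 22.1, 25.5, and 24.1 CPM in CGN-KO cells (0.63 ± 0.10, limma, adjusted p = 0.000922). The other 4 that rose, ACTN4, EZR, ARHGAP35, and CFL1, lie on the 2 chromosomes whose medians were raised in double-KO cells, and rose by 0.21 to 0.30. CNN2, which encodes calponin 2, was at 11.7, 11.7, and 12.6 CPM against 21.0, 21.3, and 19.6 CPM (-0.73 ± 0.08, adjusted p = 2.93e-05), and LIMK2, a kinase that inhibits cofilin, fell by 0.33. The count of 5 was 3 without the unnumbered double-KO library, double-KO replicate 3, CGN-KO replicate 1, or CGN-KO replicate 3.

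Several other lists moved by small amounts. Of 30 genes of cholesterol and fatty acid synthesis 0 fell by limma or edgeR, 15 had an unadjusted p below 0.05, and the median was 0.14. In this list 7 rose (23.3%, against 4.93% of all genes tested). They included DHCR7, TM7SF2, ACACA, HMGCS1, ELOVL6, and MVK, and the 7 rose by 0.22 to 0.37, and DHCR7 and TM7SF2 lie on the chromosome of CTNND1. Of 22 S100 and annexin genes 6 fell (27.3%, against 3.91% of all genes tested), 0 rose by limma or edgeR, and 10 had an unadjusted p below 0.05. S100A1 was at 1.60, 1.25, and 1.58 CPM against 5.47, 2.57, and 3.31 CPM. S100P was at 46.2, 44.4, and 46.4 CPM against 75.8, 62.6, and 65.3 CPM. The count of 6 was 2 without the unnumbered double-KO library, 3 without double-KO replicate 3, and 2 without CGN-KO replicate 1. Of 43 cell cycle genes 6 rose (MAD2L1, RRM2, E2F1, CDK6, TOP2A, and BUB1) and 3 fell, namely the inhibitors CDKN1A (-0.39) and CDKN2B (-0.62) and the cyclin CCND3. The 6 higher cell cycle genes became 1 to 3 when any 1 library was left out. Of 35 glycolysis and hypoxia genes 5 fell (14.3%, against 3.91% of all genes tested). These 5 became 1 without the unnumbered double-KO library or double-KO replicate 2, and 3 or 4 without any other library. Of 16 Notch pathway genes tested, NOTCH3 (-0.68) and DTX4 (-0.74) fell (12.5%, against 3.91% of all genes tested). Among 14 regulators of epithelial-mesenchymal transition 1 rose (7.14%, against 4.93%). It was SNAI2 (0.59, 7.17, 5.69, and 7.47 CPM against 3.07, 4.94, and 4.61 CPM).

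Of the 209 genes tested on 8 further lists, 22 passed (10.5%), against 8.84% of all genes tested. Counts of higher and lower members were 1 and 1 of 26 for YAP and SRF targets, 0 and 2 of 21 for EGF receptor ligands and receptors, 2 and 2 of 23 for TGF-beta and BMP genes, and 1 and 0 of 25 for the Wnt pathway. They were 0 and 3 of 22 for p53 targets, 1 and 0 of 29 for amino acid and endoplasmic reticulum stress, 3 and 2 of 24 for oxidant and xenobiotic response, and 4 and 0 of 43 for the primary cilium. Among 30 renal tubule genes tested, CA2, a carbonic anhydrase, rose (0.56, 282, 274, and 271 CPM against 196, 173, and 193 CPM), and the aquaporin AQP5 fell (-0.44).

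The other largest falls were of genes with varied roles. SELENOP, which encodes the selenium transport protein of plasma, had the largest fall but also the largest SE of the 45 genes, with 1.74, 3.98, and 1.62 CPM in double-KO and 22.3, 5.28, and 7.68 CPM in CGN-KO cells (-1.71 ± 0.39, limma, adjusted p = 0.012). Its call was lost without the unnumbered double-KO library or double-KO replicate 3. SELENOM, a selenoprotein of the endoplasmic reticulum, was far steadier, at 1.99, 2.67, and 2.60 CPM against 8.21, 7.31, and 7.79 CPM (-1.36 ± 0.13, adjusted p = 1.42e-05). MAF, a basic leucine zipper transcription factor, was at 1.60, 1.82, and 2.19 CPM against 9.30, 6.02, and 7.20 CPM (-1.55 ± 0.20, adjusted p = 0.000159). For SELENOP, SELENOM, and MAF, the WT levels (1.24, 0.607, and 0.669 CPM for MAF) were near or below those of double-KO cells. TMEM92, a transmembrane protein, was at 2.57, 1.59, and 1.87 CPM against 8.01, 7.65, and 9.33 CPM (-1.64 ± 0.12, adjusted p = 9.47e-07), with WT cells between them at 3.77, 3.70, and 3.92 CPM.

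The 6 genes that rose had SEs of 0.07 to 0.15, against a median SE of 0.084 over the genes tested. TRPA1, a cation channel that responds to irritants, was at 87.2, 98.1, and 100.2 CPM in double-KO and 41.2, 44.1, and 43.2 CPM in CGN-KO cells, from at least 732 reads in any of these libraries (1.13 ± 0.07, limma, adjusted p = 5.89e-07). MELTF, the iron-binding melanotransferrin, was at 10.6, 11.8, and 12.9 CPM against 4.65, 4.30, and 4.02 CPM (1.26 ± 0.14, adjusted p = 4.26e-05). Both genes, like ADAMTS1, FAM110B, and TBX20, were higher in double-KO cells than in any library of the other 3 genotypes. RCN1, a calcium-binding protein of the endoplasmic reticulum, was at 25.2, 25.9, and 25 CPM against 12.1, 10.1, and 12.3 CPM (1.08 ± 0.10, adjusted p = 8.41e-06). It lies on the chromosome of CTNND1, and it was higher in WT (38.0, 38.5, and 31.7 CPM) than in double-KO cells. FAM110B was at 18.0, 18.0, and 20.9 CPM against 6.86, 8.49, and 9.57 CPM (1.11 ± 0.12, adjusted p = 3.02e-05), and the T-box transcription factor TBX20 was at 3.83, 4.27, and 3.45 CPM against 1.35, 1.04, and 1.71 CPM (1.04 ± 0.15, adjusted p = 0.000612). The call of FAM110B was lost without CGN-KO replicate 1, and that of TBX20 without double-KO replicate 2 or CGN-KO replicate 2.

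WT cells did not hold a fixed place beside the 2 lines. Of the 39 lower genes, the WT mean was between the means of the 2 lines for 22, above both for 12, and below both for 5. RIPOR2, CCL2, MMP13, and PPFIBP2 were among the 12, and MAF, SCGB1A1, KANK4, and DLA-DMB among the 5. For the 6 higher genes these counts were 3, 1, and 2. CGN-KO replicate 1 was the highest CGN-KO library for 26 of the 39 lower genes, and for 39.5% of all genes tested. Replicate 1 was likewise the highest WT library for 25 of the 39 and for 37.6% of all genes tested. It was the highest CGNL1-KO library for 28 of the 39 and for 42.2% of all genes tested. Without CGN-KO replicate 1 37 genes were called, 5 higher and 32 lower, of which 36 were among the 45. Of the 45 calls, 30 held without each of the 6 libraries in turn, and no sign changed.

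The loss of CGNL1 in the WT background, CGNL1-KO against WT cells, shares no library with this comparison and was set beside it to ask whether the same genes differ. It called 78 genes (0.617%), 48 higher (0.379%) and 30 lower (0.237%). The genes called in both numbered 11, 24.4% of the 45 and 14.1% of the 78. Of these 11, 6 had the same direction in both, all lower: CGNL1, RIPOR2, GAS7, FXYD6, GJB1, and DZIP1. The other 5 had opposite directions, with TRPA1 higher and SCGB1A1, ADAMDEC1, CCL20, and DLA-DMB lower in double-KO cells. The calls of GJB1 and DLA-DMB between double-KO and CGN-KO cells were lost without CGN-KO replicate 1. Across all 12650 genes the 2 sets of differences had Pearson's r = -0.0482 and Spearman's rho = -0.0456, a description across genes, which are not independent replicates.

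RIPOR2, which encodes an inhibitor of RhoA, was at 2.03, 1.71, and 2.92 CPM in double-KO, 7.72, 6.76, and 6.73 CPM in CGN-KO, 2.61, 2.21, and 2.73 CPM in CGNL1-KO, and 12.3, 11.6, and 12.6 CPM in WT cells. It was lower by 1.34 in double-KO than in CGN-KO cells and by 1.91 in CGNL1-KO than in WT cells (limma, adjusted p = 1.1e-05 and 7.38e-08). Both lines without CGNL1 were low, and CGN-KO cells sat between them and WT cells. GAS7, a growth arrest-specific gene, was at 2.62, 2.56, and 1.62 CPM in double-KO, 10.6, 5.04, and 7.74 CPM in CGN-KO, 2.73, 1.26, and 2.14 CPM in CGNL1-KO, and 13.7, 6.24, and 7.55 CPM in WT cells. Replicate 1 was the highest library of CGN-KO, WT, and CGNL1-KO cells, and the falls of 1.39 and 1.70 carried an SE of 0.26. FXYD6, a regulator of the sodium pump, was at 3.92, 3.98, and 3.09 CPM in double-KO, 10.4, 8.84, and 8.92 CPM in CGN-KO, 3.25, 3.79, and 3.42 CPM in CGNL1-KO, and 13.3, 9.66, and 9.46 CPM in WT cells (-1.16 and -1.38). DZIP1, a gene of the cilium base, was at 1.36, 1.42, and 1.5 CPM in double-KO, 5.01, 4.99, and 6.32 CPM in CGN-KO, 1.97, 1.62, and 1.55 CPM in CGNL1-KO, and 5.07, 4.86, and 3.49 CPM in WT cells (-1.402 and -1.001). GJB1 fell by 1.03 and 1.401. For all 6 genes every library of the lines without CGNL1 lay below every library with it, as it did for 65 of the 12650 genes tested (0.514%). The 6 were chosen by their calls in these same libraries, so this separation is no separate support.

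**Figure D4:**
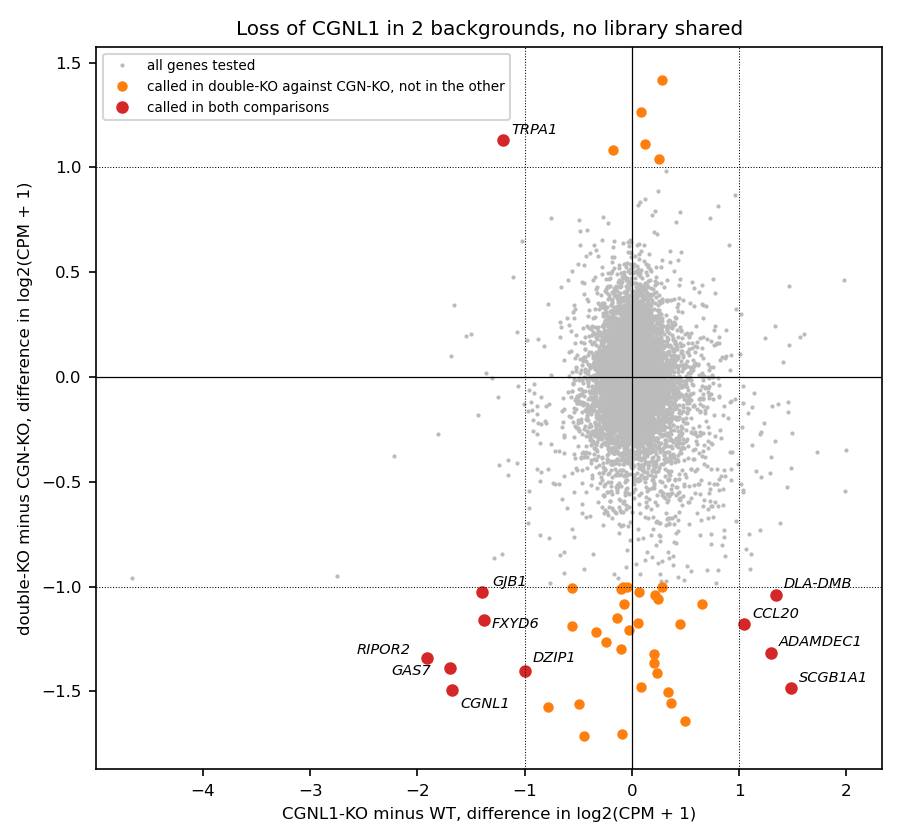
Difference on loss of CGNL1 in WT cells (horizontal axis, CGNL1-KO minus WT) and in CGN-KO cells (vertical axis, double-KO minus CGN-KO), both in log2(CPM + 1), for all 12650 genes tested. The 11 genes called in both comparisons are labelled, 6 at the lower left and 5 in the quadrants of opposite sign.

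The difference between the 2 losses was tested in the same fit, and 206 genes (1.63%) were called for it, 34 with a more positive and 172 with a more negative difference in the CGN-KO background. Of the 45 genes, 28 were among the 206, and since both tests use the same 6 libraries this count is not independent. SCGB1A1 was lower by 1.48 in double-KO than in CGN-KO cells and higher by 1.48 in CGNL1-KO than in WT cells. It was at 17.4, 10.9, and 10.3 CPM in CGN-KO and 13.2, 5.10, and 8.56 CPM in CGNL1-KO libraries, a difference between the losses of -2.96 ± 0.34 (limma, adjusted p = 3.38e-05). TRPA1 went the other way, higher by 1.13 in double-KO than in CGN-KO cells and lower by 1.20 in CGNL1-KO than in WT cells. It was at 32.9, 30.5, and 32.9 CPM in WT and 12.2, 14.3, and 13.6 CPM in CGNL1-KO cells (difference between the losses 2.33 ± 0.10, limma, adjusted p = 9.37e-10). CCL20 rose to 31.3, 17.5, and 24.7 CPM in CGNL1-KO cells from 11.1, 11, and 11 CPM in WT cells, and the losses differed by -2.22 (adjusted p = 6.51e-06). ADAMDEC1, a secreted metalloprotease of the disintegrin family, was at 6.64, 6.54, and 5.80 CPM in double-KO, 20.8, 14.3, and 17.2 CPM in CGN-KO, 19.6, 12.9, and 19.6 CPM in CGNL1-KO, and 6.48, 5.80, and 6.83 CPM in WT cells. Its levels were thus high in each single KO and low in WT and double-KO cells. For CGNL1 itself the losses differed by 0.19 (adjusted p = 0.688).

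At any fold 260 genes passed in both comparisons, of which 110 had the same and 150 the opposite direction. They were 23.3% of those in double-KO against CGN-KO cells, where 10.3% of all genes tested passed in the other comparison. They were 19.97% of those in CGNL1-KO against WT cells, where 8.84% of all genes tested passed in the other comparison. In the chemokine list, 12 members fell and 2 rose in double-KO against CGN-KO cells, whereas 15 rose and 0 fell in CGNL1-KO against WT cells. C3 fell by 0.80 in the first and rose by 0.84 in the second, and IL1RL1, the receptor of the alarmin IL33, fell by 0.35 and rose by 1.999. The interferon list held more lower than higher members in both comparisons, with 10 lower and 0 higher in the first and 7 lower and 2 higher in the second. Of all 12650 genes tested, 861 rose and 441 fell at any fold in CGNL1-KO against WT cells.

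Genes of 2 chromosomes were raised as a block in double-KO cells. The gene order came from another dog assembly than the authors' build, so each chromosome is identified here by 1 of its genes and not by a number. The median over the 688 genes on the chromosome of MYH14, as log2(CPM + 1) minus the CGN-KO mean and centred on all placed genes, was 0.185, 0.180, and 0.205 in the 3 double-KO libraries and within -0.0121 and 0.00429 in the CGN-KO libraries. The median over the 398 genes on the chromosome of CTNND1 was 0.199, 0.189, and 0.221 in double-KO and within -0.00326 and 0.0101 in CGN-KO libraries. The differences were 0.192 ± 0.0121 and 0.201 ± 0.0117 (limma, adjusted p = 1.56e-09 and 9.72e-10), against -0.0487 to 0.0536 on the 37 other chromosomes. Of those 37, 5 passed the adjusted p as well, 1 higher and 4 lower, with that of CGN the lowest (-0.0487). On the chromosome of MYH14 81.7% of the genes were higher in double-KO cells, and on that of CTNND1 85.9%. All 27 and 15 windows of 25 neighbouring genes had medians above 0.

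**Figure D5:**
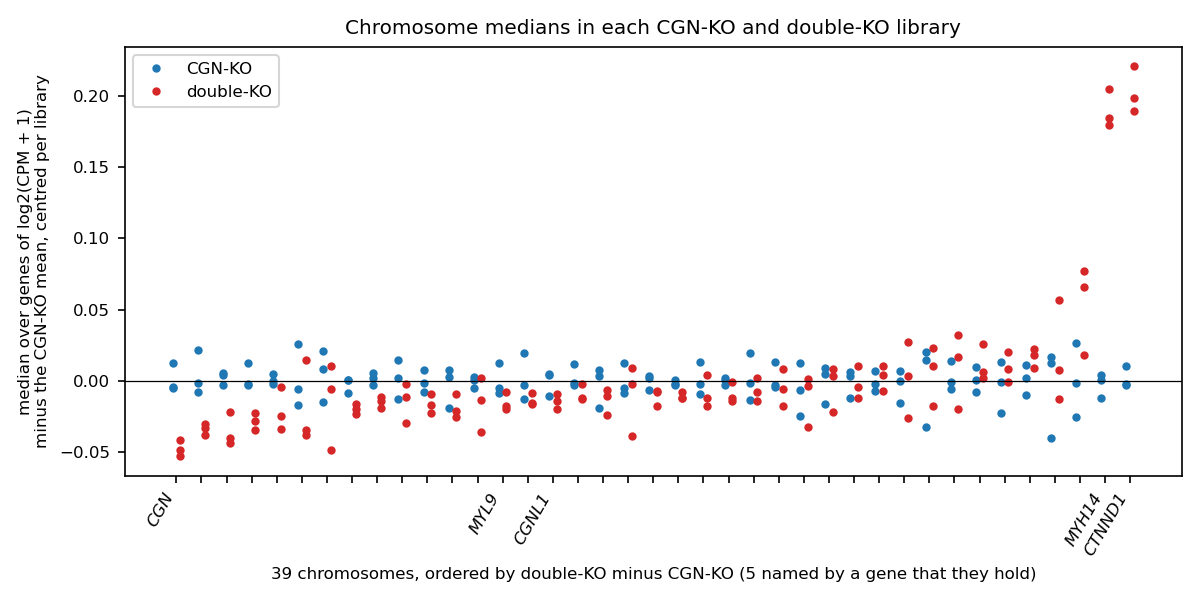
Median over the genes of each of 39 chromosomes (horizontal axis, ordered by the difference) of log2(CPM + 1) minus the CGN-KO mean, centred on all placed genes (vertical axis), with 1 point per CGN-KO or double-KO library. The 3 double-KO points of the chromosomes of MYH14 and CTNND1 lie between 0.180 and 0.221, above all points of the other 37 chromosomes.

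These 2 chromosomes hold 8.58% of the genes tested. Of the 624 genes that were higher at any fold in double-KO cells, 406 (65.1%) lie on them, as do 17 (3.44%) of the 494 lower genes. The other 218 higher and 477 lower genes lie off them. A new fit without the 2 chromosomes, with p adjusted over its own 11564 genes, passed 530 at any fold (4.58%), 162 higher and 368 lower. The drop from 218 and 477 thus came with the new fit and adjustment. The called genes were little touched, since 4 of the 45 lie on them (SCGB1A1, MUC5B, and SASH1, which were lower, and RCN1, which was higher), and 40 were called when both chromosomes were left out, with FAM3D also lost. In CGNL1-KO against WT cells the same medians differed by 0.00476 for MYH14 (limma, adjusted p = 0.755) and 0.0529 for CTNND1 (adjusted p = 0.00381). That comparison had a raised chromosome of its own, that of MYL9, with a difference of 0.220 (adjusted p = 1.57e-12), where double-KO and CGN-KO cells differed by -0.0149 (adjusted p = 0.319). On it the WT medians were -0.186, -0.200, and -0.197, and those of the 9 KO libraries were within -0.0199 and 0.0338. The source of the raised medians was not tested.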

How the data were processed

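The authors prepared stranded mRNA libraries, aligned single reads to canFam3 with STAR 2.7.0f, counted them per gene with HTSeq 0.9.1 and normalized them with edgeR. They deposited 1 table of 13672 genes with a signal in CPM per library. All values (100%, tolerance 0.01 reads) were whole multiples of the value of 1 read, so the counts behind them were recovered. Totals cover listed genes only.

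Genes above 1 CPM in 3 or more libraries (12650) were fitted as log2(CPM + 1) with limma 3.58.1 (trend) in R 4.3.3, in 1 fit of the 4 genotypes with no block. Calls needed an adjusted p below 0.05 and a 2-fold change. edgeR 4.0.16 and DESeq2 1.42.0 on the recovered counts were alternatives. In simulated data for this comparison, 196 of 200 changed genes passed the adjusted p and 136 met the full call, as did 3 and 0 unchanged genes. The simulation gave all genes the same spread beyond counting noise and no outlying library, so its rates need not hold for these data. Its changed genes included true changes of exactly 2-fold, at the call threshold. Chromosomes came from RefSeq genes of another assembly (UU_Cfam_GSD_1.0) and were found by gene symbol for 92.9% of the genes.

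Named genes were CGN, CGNL1, the 12 largest rises and falls among called genes with a symbol and no overlap between genotypes, called list members, and genes called in the same direction in CGNL1-KO against WT cells. The comparison, lists, and rules were chosen with earlier results of these data known. Counts of list members without single libraries were added after seeing the data. Sequences were not analysed here. A few genes on the lists are not reported here by name.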

Additional observations from a re-analysis of the deposited data

Results flagged for a closer look

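The change on loss of CGNL1 differed between the CGN-KO and the WT background, by a test of the difference itself in limma (double-KO minus CGN-KO, minus CGNL1-KO minus WT, in log2(CPM + 1)), for 206 genes at an adjusted p below 0.05 and a difference of at least 2-fold. The 206 were 1.63% of all genes tested. Many of the 114 genes named in the text were picked by their values in the 2 comparisons that enter this test. Their count and signs here are thus no separate support. Among the 114 the difference was called for 37, 33 negative and 4 positive, 13 of them given by the naming rule. Of these 13, it was negative for SCGB1A1 (-2.96), CCL20 (-2.22), TMEM92 (-2.13), MAF (-1.92), PROM1 (-1.84), KRT14 (-1.73), CCL2 (-1.64), SELENOM (-1.57), and CXCR4 (-1.23). It was positive for TRPA1 (2.33), RCN1 (1.26), MELTF (1.18), and ADAMTS1 (1.14). The other 24 were negative: ADAMDEC1 (-2.61), ACKR3 (-2.53), DLA-DMB (-2.38), IL1RL1 (-2.35), CCL17 (-2.01), DLA-DQA1 (-1.92), DLA-DRA (-1.88), HLA-DRB1 (-1.84), C3 (-1.64), KRT16 (-1.58), CCL7 (-1.53), DLA-DMA (-1.42), PLAT (-1.30), KANK4 (-1.29), H19 (-1.28), PPFIBP2 (-1.18), CNN2 (-1.16), DTX4 (-1.15), MMP14 (-1.12), CIITA (-1.08), KDR (-1.07), MUC5B (-1.01), SASH1 (-1.01), and NOTCH3 (-1.01). The 12 libraries of both losses enter this test, and each background holds its own clones, so the background and the clone cannot be told apart.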

How the results depend on the processing

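All 45 calls between double-KO and CGN-KO cells held with a pseudocount of 0.25, edgeR, DESeq2, no filter, library totals as the scale, and a fit of the compared genotypes. The last 3 of these also called 45. The number was 88 with a pseudocount of 0.25 (11 higher and 77 lower), 118 with edgeR (13 and 105), 117 with DESeq2 (13 and 104), and 11 among genes with a mean of at least 10 CPM (4 and 7), since that filter leaves 34 of the 45 out. Leaving out 1 library gave 37 to 58 (5 to 7 higher and 32 to 52 lower) and, at any fold, 546 to 994 against 1118. A test against a 2-fold null (limma treat) called 0 genes in either direction, with 21 at an unadjusted p below 0.05 and a lowest adjusted p of 0.449, so no change was shown to exceed 2-fold.

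CGNL1-KO against WT called 132, 35, 157, and 157 genes, against 78, with a pseudocount of 0.25, the 10 CPM filter, edgeR, and DESeq2. Genes called in both comparisons in the same direction were 15, 1, 19, and 19, against 6. The difference between the losses gave 79 with the filter and 310 with DESeq2, against 206. Leaving out 1 library gave 75 to 88, 5 to 8, and 179 to 256.

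The medians of both raised chromosomes kept their sign and threshold under every alternative run for them. The replicate numbers mark nothing stated. Same-numbered double-KO and CGN-KO libraries deviated in opposite ways (r across genes -0.233 and -0.123 for numbers 2 and 3). The unnumbered double-KO library and replicates 2 and 3 deviated most like CGN-KO replicates 3, 1, and 2 (r = 0.240, 0.275, and 0.267). For CGN-KO and CGNL1-KO libraries of the same number r was 0.632, 0.475, and 0.179. For WT it was 0.373, 0.318, and -0.0822 with CGN-KO and 0.329, 0.371, and 0.0110 with CGNL1-KO libraries. For double-KO replicates 2 and 3 it was -0.152 and 0.0859 with WT and -0.235 and -0.124 with CGNL1-KO libraries. The source of these likenesses was not tested, and a set of cultures or libraries shared by some genotypes cannot be told apart from genotype here. With the replicate number as a block, over numbered libraries, limma called 39 genes (6 higher and 33 lower) and 924 at any fold, and 36 of the 45 remained. Depth limits the called genes: 34 of the 45 were under 10 CPM, and the lowest library held 2 reads.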

Other observations

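Genes of antigen presentation by class II, the surface molecules that show peptides to helper T cells, were among those lower in double-KO than in CGN-KO cells, a set chosen after its values were seen. Of 7 genes tested, 5 fell at an adjusted p below 0.05 (limma), as did 3.91% of all genes tested. DLA-DMB, a chain of the peptide editor, was at 26.7, 28.2, and 28.2 CPM in double-KO and 65.5, 52.1, and 56.8 CPM in CGN-KO cells (-1.04 ± 0.09), and its call at 2-fold was lost without CGN-KO replicate 1 and with the replicate number as a block. DLA-DRA was at 111, 112, and 107 CPM against 219, 179, and 190.0 CPM (-0.82 ± 0.08), HLA-DRB1, as the gene list spells it, differed by -0.75, DLA-DQA1 by -0.73, and DLA-DMA by -0.62. CD74, the invariant chain, was at 1726, 1709, and 1749.8 CPM against 1773, 1656, and 1695 CPM (adjusted p = 0.902), and the class II regulator CIITA was at 17.9, 19.3, and 19.5 CPM against 22.5, 25.1, and 20.6 CPM (adjusted p = 0.0949). In WT cells DLA-DRA was lower than in either line, at 71.8, 61.1, and 68.2 CPM, and in CGNL1-KO cells it was at 154, 133, and 136 CPM. Reads of similar class II genes could be split by the counting.

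Of all 12650 genes tested, 1118 passed at any fold (8.84%), 624 higher and 494 lower. None of the 2300 genes with a mean of at least 100 CPM over the 6 libraries was called at 2-fold, and 269 passed at any fold, 184 higher and 85 lower. The largest falls among them, also chosen after their values were seen, were of CCL17, a T cell chemokine, at 99.0, 92.0, and 103 CPM in double-KO and 176, 191, and 190.5 CPM in CGN-KO cells (-0.92 ± 0.06), and of H19, an imprinted noncoding RNA, at 361, 376, and 359.7 CPM against 832, 607, and 625 CPM (-0.90 ± 0.17). For CCL17 the 3 CGN-KO values were close together, and for H19, which lies on the chromosome of CTNND1, replicate 1 was the highest. COL4A1 had the largest rise among them, followed by LTBP1 and COL4A2. AHNAK, a giant scaffold protein, rose from 314, 432, and 383 to 562, 522, and 547 CPM (0.54) and lies on the chromosome of CTNND1.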
